A study of Mus musculus with 6 samples.

Results

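The Cyp2c monooxygenases are a family of cytochrome P450 enzymes of the liver, and 10 of its genes were followed here by name: Cyp2c29, Cyp2c37, Cyp2c38, Cyp2c40, Cyp2c44, Cyp2c50, Cyp2c54, Cyp2c55, Cyp2c69 and Cyp2c70. They were taken by symbol from 18444 genes listed with reads in at least 1 library, of which 16 carry a Cyp2c name, and each of the 10 had reads in all 6 libraries. RNA of mouse liver was sequenced in 6 libraries, 1 for each group. All mice were male and 6 to 8 weeks old at the start, of strain C57BL/6 in the labels and C57BL/6J in the study's methods. In the diet model, SD mice ate standard chow and HFD mice a high fat diet for 16 weeks, and HFD+JT003 mice on the same diet received JT003, a peptide agonist of the adiponectin receptors AdipoR1 and AdipoR2, at 0.5 mg/kg a day for 4 weeks. In the fibrosis model, oil mice were injected with corn oil every 3 days for 6 weeks, CCl4 mice with 20% carbon tetrachloride in corn oil at 5 ml/kg on that schedule, and CCl4+JT003 mice received CCl4 together with JT003 at 0.5 mg/kg for 3 weeks. Livers were taken after a fast of 8 h. The methods give 6 mice a group without saying whether a library is 1 mouse or a pool, and the label of the HFD library and the study's results speak of steatohepatitis, whereas its methods list the high fat diet alone as a model of nonalcoholic fatty liver disease.

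With 1 library a group no difference has a replicate check, and no p-value is given. Calls were made by the size of a difference. A library held between 19374236 and 20184557 estimated counts. Differences are log2 ratios of the counts after scaling between libraries, with a 95% interval that covers counting error only and leaves out the spread between mice. A gene was called higher or lower where this ratio was at least 1 in size, that is, a 2-fold difference, and at least 10 counts were present in 1 of the 2 libraries. Levels compared between genes are FPKM, the authors' value per kilobase of transcript and per size of the library. CPM is a gene's counts scaled to the size of the library alone.

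Cyp2c enzymes sit in the membrane of the endoplasmic reticulum of hepatocytes and take electrons from the reductase Por. They oxidise drugs and also fatty acids such as arachidonic and linoleic acid, whose epoxides are opened by the soluble epoxide hydrolase Ephx2. Several of the genes are induced by xenobiotics through the nuclear receptors CAR (Nr1i3) and PXR (Nr1i2), and many hepatic P450 enzymes are densest around the central vein.

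The genes differ in how far they can be told apart by reads. Among proteins translated from reference transcripts, Cyp2c37, Cyp2c50 and Cyp2c54 shared between 91.2% and 94.5% of their residues. Cyp2c40 and Cyp2c69 shared 95.2%, and the 2 belong to a larger group of copies with Cyp2c67 and Cyp2c68, Cyp2c genes outside the 10. The reading frames of Cyp2c40 and Cyp2c69 came out at 520 residues, against 491 for Cyp2c67 and Cyp2c68. Whether the added residues are part of the protein was not checked. Cyp2c38 shared 92.0% with Cyp2c39, also outside the 10, and 84.7% with Cyp2c29. Cyp2c44 and Cyp2c70 stood furthest from the rest.

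**Figure D1:**
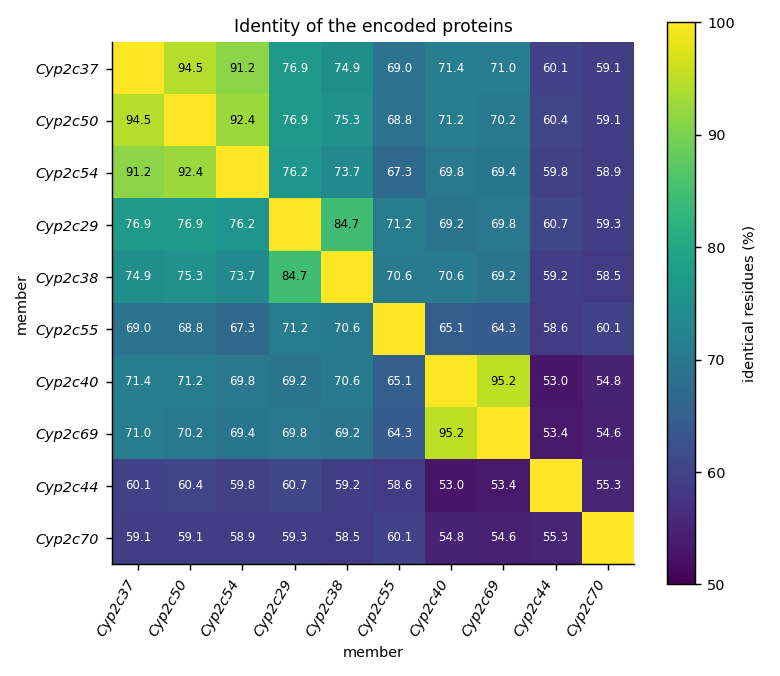
Identical residues between the proteins encoded by the 10 Cyp2c members, in percent of the aligned length, for every pair (rows and columns are members, colour gives the percent). The trio Cyp2c37, Cyp2c50 and Cyp2c54 and the pair Cyp2c40 and Cyp2c69 are the blocks above 90%.

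At the level of the transcript, 72.1% of the 50-base windows of Cyp2c40 and 54.8% of those of Cyp2c69 occurred word for word in another Cyp2c transcript. The share was 30.1% for Cyp2c37, 30.7% for Cyp2c50 and 25.7% for Cyp2c54, and 7.45% for Cyp2c38. It was 2.08% for Cyp2c29 and 0.514% for Cyp2c55, and no window of Cyp2c44 or Cyp2c70 was shared. In the files, Cyp2c44, Cyp2c55 and Cyp2c70 had whole counts in all 6 libraries, whereas the others carried fractions, as arise when a read is divided among genes. The values of Cyp2c40 and Cyp2c69, and to a lesser degree those of the trio, are therefore uncertain one by one, and their sums are given beside them.

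Promoter windows from RefSeq were matched for 8 of the 10 members (not Cyp2c44 or Cyp2c54). The 160 bases before the annotated start are printed for 7 of them, so that the windows of similar members can be read beside their levels. All lie on chromosome 19 of GRCm38.p6, a later build than the mm9 named in the processing notes, and read 5′ to 3′ on the strand of the gene. Capitals mark the TATA box letters TATAAA, the nuclear receptor core AGGTCA and, of the kinds bound by HNF4A and by C/EBP factors, CAAAGTCCA and TTGCNNAA, each searched on both strands.
Cyp2c29 (chr19:39286925-39287084, + strand): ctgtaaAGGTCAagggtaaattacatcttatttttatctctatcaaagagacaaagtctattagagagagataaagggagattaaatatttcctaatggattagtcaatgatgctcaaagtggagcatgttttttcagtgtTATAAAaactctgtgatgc
Cyp2c38 (chr19:39463076-39463235, - strand): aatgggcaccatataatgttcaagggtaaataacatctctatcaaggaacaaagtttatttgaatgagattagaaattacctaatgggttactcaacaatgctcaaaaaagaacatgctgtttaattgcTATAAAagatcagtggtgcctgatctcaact
Cyp2c37 (chr19:39992264-39992423, + strand): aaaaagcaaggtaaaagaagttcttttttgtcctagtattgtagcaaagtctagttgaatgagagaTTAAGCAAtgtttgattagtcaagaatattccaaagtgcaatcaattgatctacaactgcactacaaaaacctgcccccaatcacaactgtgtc
Cyp2c50 (chr19:40089519-40089678, + strand): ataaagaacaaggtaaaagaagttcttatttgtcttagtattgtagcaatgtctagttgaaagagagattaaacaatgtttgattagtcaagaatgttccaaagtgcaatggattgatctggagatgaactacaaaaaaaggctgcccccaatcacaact
Cyp2c69 (chr19:39886770-39886929, - strand): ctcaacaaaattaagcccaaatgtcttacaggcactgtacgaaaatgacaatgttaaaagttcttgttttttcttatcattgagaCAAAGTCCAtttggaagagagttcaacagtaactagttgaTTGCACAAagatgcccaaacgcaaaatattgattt
Cyp2c70 (chr19:40187287-40187446, - strand): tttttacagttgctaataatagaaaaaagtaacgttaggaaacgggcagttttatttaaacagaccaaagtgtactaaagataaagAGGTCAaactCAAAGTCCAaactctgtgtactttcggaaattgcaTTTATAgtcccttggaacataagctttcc
Cyp2c55 (chr19:39006859-39007018, + strand): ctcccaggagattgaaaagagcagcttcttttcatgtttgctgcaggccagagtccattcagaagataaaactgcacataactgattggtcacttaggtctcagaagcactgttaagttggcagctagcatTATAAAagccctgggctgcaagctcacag

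Over the aligned bases, the windows of Cyp2c29 and Cyp2c38 were 82.0% identical, those of Cyp2c37 and Cyp2c50 89.5%, and those of Cyp2c40 and Cyp2c69 98.9%. These were the 3 highest values of any pair, and Cyp2c40 and Cyp2c50 came next at 81.6%. TATAAA began 19 bases before the start in Cyp2c29, 31 in Cyp2c38 and 29 in Cyp2c55. In Cyp2c70 it lay 29 bases before the start on the opposite strand, and in Cyp2c40 and Cyp2c69 it followed the annotated start. AGGTCA was found in Cyp2c29 and Cyp2c70, CAAAGTCCA in Cyp2c40, Cyp2c69 and Cyp2c70, and TTGCNNAA in Cyp2c37, Cyp2c40 and Cyp2c69. Cyp2c50 held none of these motifs, and TTCNNNGAA, the letters bound by STAT5, was in none of the 8 windows. Of 32851 mouse promoter windows of the same length, 13.6% held TATAAA, 16.3% AGGTCA, 0.475% CAAAGTCCA, 10.8% TTGCNNAA and 8.30% TTCNNNGAA. A match describes the letters and is no evidence of binding.

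By level per length, 6 members made up nearly all of the family in each library. Cyp2c29, which turns arachidonic acid into epoxides, was at 130 FPKM in SD, 190 in HFD, 253 in HFD+JT003, 165 in oil, 296 in CCl4 and 204 in CCl4+JT003. Cyp2c50, an epoxygenase of linoleic and arachidonic acid, was at 113, 274, 397, 203, 144 and 148 FPKM in the same order. Cyp2c29 was thus highest in the CCl4 liver, and Cyp2c50 in the 2 livers of HFD-fed mice.

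Cyp2c44, another arachidonic acid epoxygenase, was at 86.2 FPKM in SD, 109 in HFD, 149 in HFD+JT003, 116 in oil, 179 in CCl4 and 161 in CCl4+JT003, the narrowest range of the family. Cyp2c70, which makes the muricholic acids of mouse bile, was at 99.2, 157, 139, 76.9, 221 and 118 FPKM in that order. Cyp2c37, which hydroxylates arachidonic acid, was at 73.9, 103, 185, 114, 33.6 and 36.5 FPKM. It was the only one of these abundant members that was lowest in the 2 CCl4-treated livers.

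Cyp2c54, the third copy of the trio, was at 38.0 FPKM in SD, 63.9 in HFD, 124 in HFD+JT003, 73.8 in oil, 55.4 in CCl4 and 62.4 in CCl4+JT003. Cyp2c38, an epoxygenase close to Cyp2c29, was at 3.26, 13.7, 18.5, 12.6, 3.42 and 4.66 FPKM. Cyp2c38 thus had a low level in SD and both CCl4-treated livers, and a higher one in the other three.

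The remaining members were scarce. Cyp2c40, an arachidonic acid hydroxylase, was at 1.09 FPKM in SD, 0.28 in HFD, 0.16 in HFD+JT003, 5.76 in oil, 0.50 in CCl4 and 0.29 in CCl4+JT003. Its copy Cyp2c69 was at 1.49, 0.68, 1.01, 4.87, 0.53 and 0.46 FPKM. Both were highest in the oil liver. Cyp2c55, better known from the intestine, was at 0.12, 0.36, 0.25, 0.49, 11 and 2.95 FPKM, so that it exceeded 1 FPKM in the CCl4-treated livers only.

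**Figure D2:**
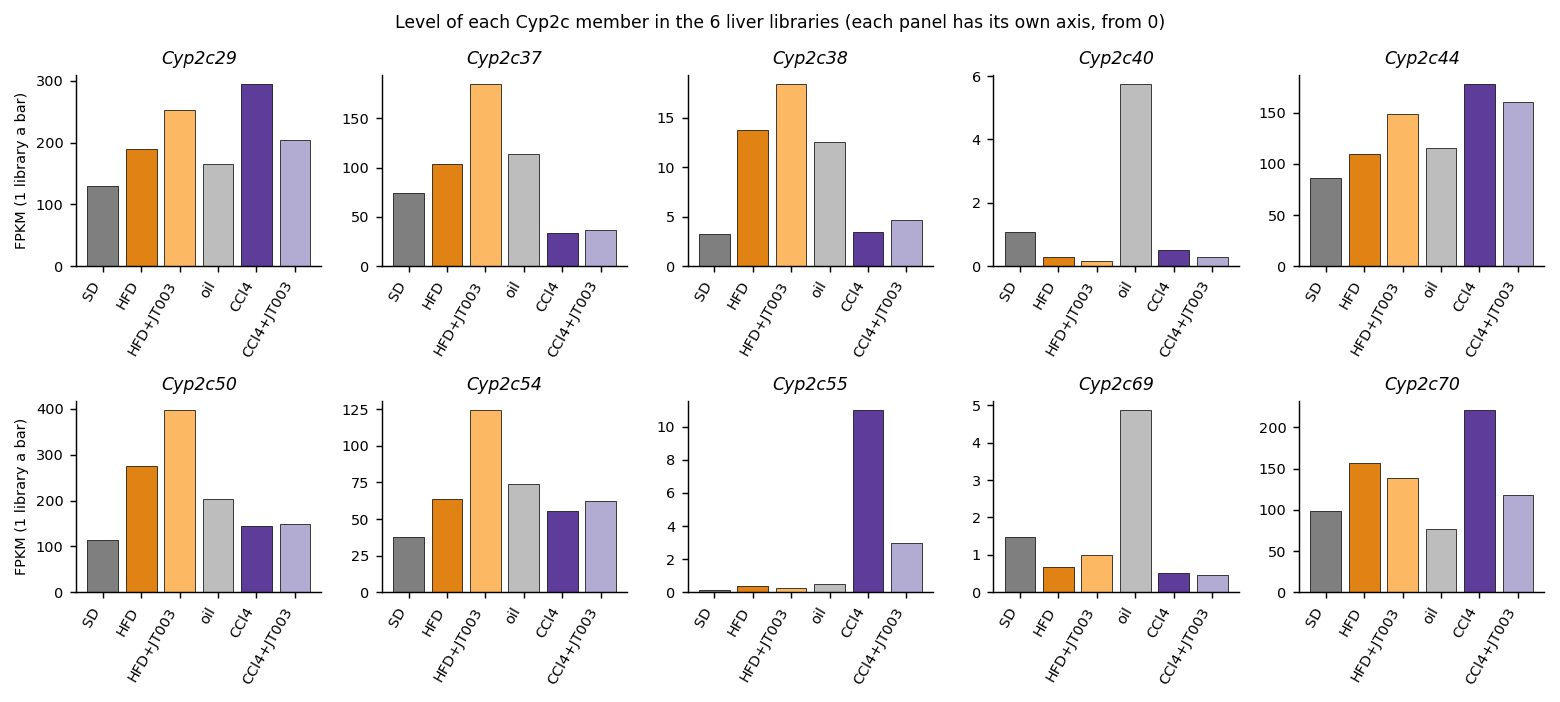
Level of each Cyp2c member in FPKM (vertical axis, from 0 and different in each panel), 1 bar for each of the 6 libraries, with no error because each group is 1 library. Cyp2c37 and Cyp2c38 drop from oil to CCl4, Cyp2c55 and Cyp2c70 stand highest in CCl4, and Cyp2c40 and Cyp2c69 in oil.

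Between its lowest and highest library, measured in scaled counts, a member varied from 1.84-fold (Cyp2c44) and 2.02-fold (Cyp2c29) to 40.6-fold (Cyp2c40) and 78.6-fold (Cyp2c55). Neighbours in these orders were not always apart: for Cyp2c29, oil, HFD and CCl4+JT003 followed each other with log2 differences of 0.01 (interval -0.04 to 0.07) and 0.02 (interval -0.03 to 0.07). For Cyp2c38, the intervals between CCl4+JT003, SD and CCl4 also held 0, as they did for Cyp2c55 between oil, HFD, HFD+JT003 and SD, where it had 19, 14, 10 and 5 counts. Albumin took 5.29% to 7.62% of the counts, and none of the 9 hepatocyte genes with enough counts was called in any of the 5 comparisons.

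Added over the 10 members, the family reached 547 FPKM in SD, 913 in HFD, 1268 in HFD+JT003, 772 in oil, 944 in CCl4 and 738 in CCl4+JT003. Its make-up differed between livers. Cyp2c50 held 20.7% of the sum in SD, 30.0% in HFD and 31.3% in HFD+JT003, and Cyp2c70 held 18.1%, 17.2% and 10.97% in the same libraries. From oil to CCl4, Cyp2c37 went from 14.7% to 3.56% and Cyp2c50 from 26.3% to 15.3%, while Cyp2c29 went from 21.3% to 31.3% and Cyp2c70 from 9.96% to 23.4%.

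**Figure D3:**
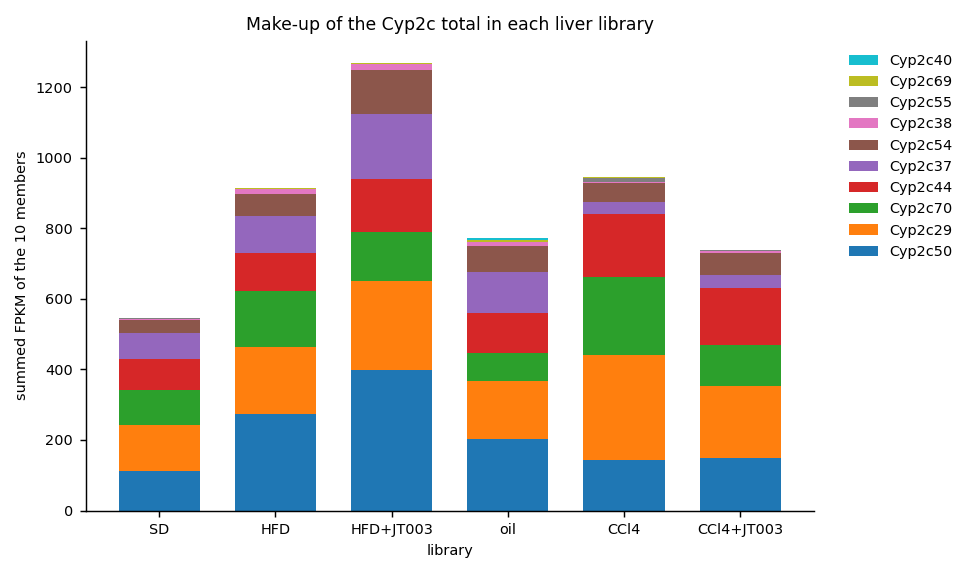
Summed FPKM of the 10 Cyp2c members (vertical axis) in each of the 6 libraries (1 bar a library), divided by member. The total is largest in HFD+JT003 at 1268 FPKM, and the CCl4 bar is made up more of Cyp2c29 and Cyp2c70 and less of Cyp2c37 than the oil bar.

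The first comparison asked what the high fat diet did to these genes. The summed Cyp2c counts were higher in HFD than in SD, with a log2 ratio of 0.62 (interval 0.59 to 0.64). Cyp2c38 had the largest increase, from 190 to 784 counts (log2 ratio 1.94, interval 1.72 to 2.19), followed by Cyp2c50, from 4106 to 9614 counts (1.14, interval 1.08 to 1.19). Together with Cyp2c55, 3 of 10 members were called higher, against 5.94% of the 13335 genes tested. Cyp2c40 (40 to 10 counts, log2 ratio -1.89) and Cyp2c69 (53 to 24 counts, -1.17) made 2 of 10 called lower, against 4.15%.

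The call of Cyp2c55 rested on 14 counts against 5, and its interval of -0.16 to 3.22 held 0. The 2 copies called lower had few reads, and their calls ended with FPKM at a pseudocount of 1 (-0.71 for Cyp2c40 and -0.57 for Cyp2c69), as did that of Cyp2c55 (0.28). With at least 100 counts required, 0 members were called lower. An edgeR test at an assumed coefficient of variation of 0.2 between mice ended the calls lower and some of the calls higher. At 0.4 it ended all of them. Cyp2c40 and Cyp2c69 together went from 93 to 34 counts (log2 ratio -1.49, interval -2.15 to -0.96), while the sum with Cyp2c67 and Cyp2c68, which hold most of its reads, was at -0.31 (interval -0.37 to -0.25). The remaining 5 members lay between 0.22 (Cyp2c44) and 0.63 (Cyp2c54), and the trio of Cyp2c37, Cyp2c50 and Cyp2c54 together was at 0.84 (interval 0.80 to 0.88). The median of the 10 was 0.48 and that of all genes 0.00.

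Por, the electron donor of microsomal P450 enzymes, had 11370 counts in SD and 4384 in HFD (log2 ratio -1.47, called lower), and was the only one of 8 electron donors and partners that was called. The median of the 8 was 0.46. Ephx2 went from 40696 to 20279 counts (-1.10, called lower). Among 16 genes that handle arachidonic acid and its epoxides, 4 were called lower and none higher, the largest being the fatty acid hydroxylases Cyp4a14 (206802 to 7401 counts, -4.90) and Cyp4a10 (84554 to 9592, -3.23).

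Of 16 target genes of CAR and PXR, 7 were called higher and 1 lower, with a median of 0.60, among them Cyp2a5 (670 to 6101 counts, log2 ratio 3.09), Cyp2b9 (0 to 856 counts, at least 268-fold higher against a floor of 3 counts in the SD library) and Aldh1a1 (8701 to 29666 counts, 1.68). Cyp2b9 and Cyp2b13, both called higher, also stand on a list of genes that are higher in female than in male liver. Of 5 genes of that list with enough counts, 3 were called higher and 2 lower (median 1.52). Nr1i3 itself had 1572 and 2139 counts (0.35), Nr1i2 1848 and 1394 (-0.50), Cyp2b10 0 and 2 counts and Cyp3a11 8921 and 12119 (0.35). A list of drug-metabolising P450 genes outside the Cyp2c family overlaps the CAR and PXR targets. Of its 19 genes with enough counts, 6 were called higher and none lower. Cyp2a5, Cyp2b9 and Cyp3a25 count among those called higher on both lists. Pericentral genes were divided, with 3 of 13 called higher and 3 lower, and 3 of 12 periportal genes were called lower. Of the 10 stellate cell genes 4 were called higher (median 0.66), of the 11 macrophage genes 2 higher (median 0.08), and of the 5 red blood cell genes 4 lower (median -1.15). Of 2 adipocyte genes with enough counts 1 was called higher, Cfd (2 to 454 counts), while Fabp4 had 260 and 164. Their median of 3.01 thus lies between genes that went opposite ways. Of 4 intestine genes 3 were called lower (median -2.13). The part of these cells in the Cyp2c values was not tested. In liver pieces, fewer cells of a type and less RNA per cell cannot be told apart.

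**Figure D4:**
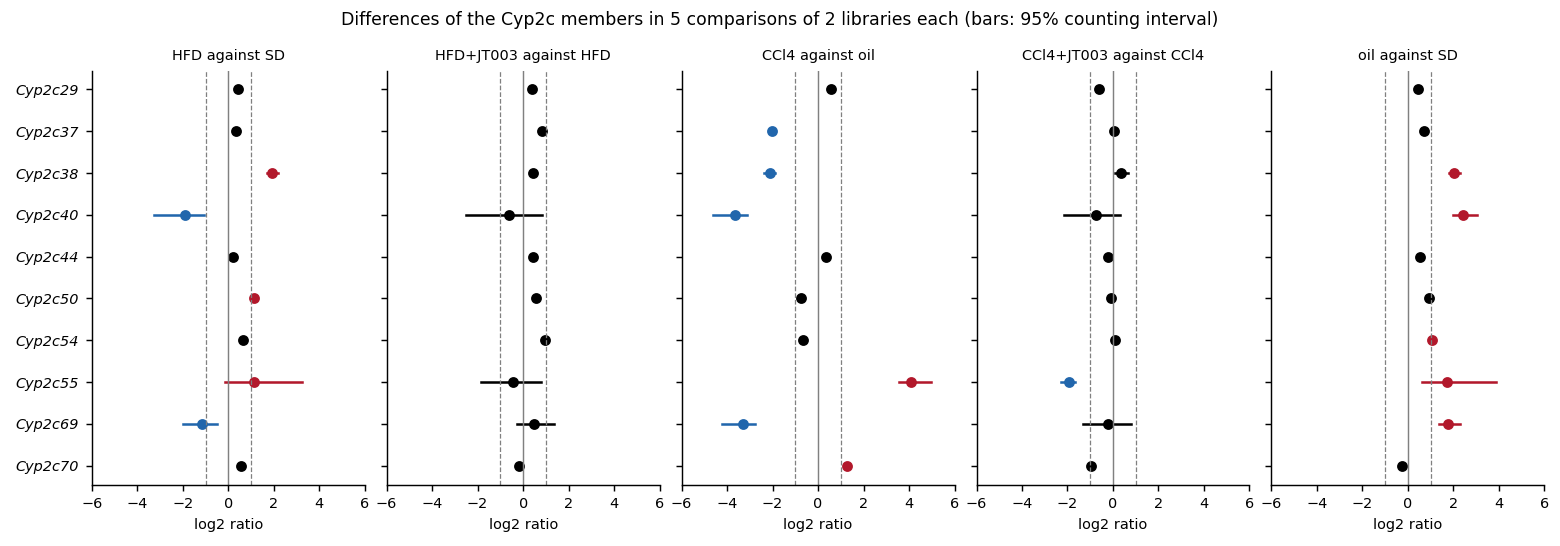
Log2 ratio of each Cyp2c member (points; horizontal axis) with its 95% counting interval (bars) in 5 comparisons of 2 libraries each. Dashed lines mark a 2-fold difference, and members called higher are red and members called lower blue. No member is called for JT003 on the high fat diet, and the oil and SD controls differ by calls of 5 members.

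JT003 on the high fat diet was the second comparison. The summed Cyp2c counts were higher in HFD+JT003 than in HFD by 0.47 on the log2 scale (interval 0.45 to 0.49), and 7 of 10 members had a ratio above 0. The ratios closest to the threshold were those of Cyp2c54 (2248 to 4399 counts, log2 ratio 0.95, interval 0.87 to 1.02) and Cyp2c37 (3725 to 6713 counts, 0.83, interval 0.77 to 0.89). No member was called: 0 of 10 higher against 2.35% of 13453 genes and 0 of 10 lower against 2.36%.

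For the trio of Cyp2c37, Cyp2c50 and Cyp2c54 together the log2 ratio was 0.68 (interval 0.65 to 0.71), and for Cyp2c40, Cyp2c67, Cyp2c68 and Cyp2c69 together 0.32 (interval 0.26 to 0.38). Cyp2c40 and Cyp2c69 alone summed to 34 and 41 counts (0.23, interval -0.44 to 0.95). Cyp2c29, Cyp2c38, Cyp2c44 and Cyp2c50 lay between 0.40 and 0.54. Cyp2c70 differed from them at -0.19 (interval -0.25 to -0.13). The intervals of Cyp2c40, Cyp2c55 and Cyp2c69 held 0. The median was 0.42 for the members and 0.00 for all genes.

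Por was at 4384 counts in HFD and 10261 in HFD+JT003 (log2 ratio 1.20), close to the 11370 of SD before scaling. Nr1i3, which encodes CAR, went from 2139 to 5387 counts (1.31). Of 16 CAR and PXR targets, 1 was called, Cyp2a5 (6101 to 17345 counts, 1.48). Ephx2 had 20279 and 26282 counts (0.35), and Cyp4a14 7401 and 30625 (2.03, called higher). Of the 10 stellate cell genes 4 were called lower (median -0.83). Of the 11 macrophage genes 2 were called lower, Gpnmb and Trem2, although the median of the 11 was 0.53 and their summed level 345 scaled CPM in HFD and 464 in HFD+JT003. Both comparisons of the diet model use the HFD library, which enters them on opposite sides.

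CCl4 was the third comparison, in a model where liver injury lies around the central vein. The family as a whole barely differed, with 27430 summed counts in oil and 34448 in CCl4 and a log2 ratio of 0.01 (interval -0.01 to 0.03) after scaling, but its members parted. No direction can be given for the sum, since it was 0.27 with total counts in place of the scaling factors and -0.25 with the other CCl4 reads described further on. Cyp2c55 was higher, from 19 to 442 counts (log2 ratio 4.10, interval 3.56 to 4.97), and so was Cyp2c70, from 2558 to 7611 counts (1.25, interval 1.19 to 1.32). These were the 2 of 10 members called higher, against 8.34% of 13602 genes.

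Cyp2c37 was lower in CCl4, from 4042 to 1238 counts (log2 ratio -2.02, interval -2.12 to -1.93), as was Cyp2c38, from 707 to 200 counts (-2.13, interval -2.37 to -1.91). Cyp2c40 went from 203 to 18 counts (-3.66, interval -4.60 to -3.12) and Cyp2c69 from 168 to 19 counts (-3.32, interval -4.23 to -2.77). That made 4 of 10 members called lower, against 5.11% of genes. An edgeR test at an assumed coefficient of variation of 0.4 between mice ended some of the calls in each direction. The median of the members was -0.71 and that of all genes -0.02. With total counts in place of the scaling factors the same numbers of members were called, while the split over all genes moved from 1134 higher and 695 lower to 1652 and 447.

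The 3 pairs with the highest promoter identity can be set side by side. Cyp2c40 and Cyp2c69 were both called lower, although reads of these copies are hard to tell apart. Cyp2c50, paired with Cyp2c37, was at 7000 and 5208 counts (log2 ratio -0.74), lower like Cyp2c37 but short of the threshold. Cyp2c29, paired with Cyp2c38, was at 5734 and 10643 counts (0.57), the opposite sign to that of Cyp2c38. Cyp2c54 was at -0.68, and the trio together at -1.01 (interval -1.05 to -0.97). Cyp2c40 and Cyp2c69 together went from 371 to 37 counts (-3.57, interval -4.17 to -3.15). With Cyp2c67 and Cyp2c68 added, the sum had a log2 ratio of -0.41 (interval -0.46 to -0.36), with Cyp2c68 at 2566 counts in oil and 4009 in CCl4.

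The CCl4 group can be looked at once more. A deposited comparison table holds a CCl4 value per gene whose sum is 2.97 times that of the CCl4 library. It was taken here as the authors' pooled value over several CCl4 libraries, which no source used here states. It lay below the CCl4 library for 24 genes, by at most 0.99 counts. On that assumption, what remains after subtracting the CCl4 library stands for other CCl4 reads. In these other reads the same members passed the threshold: Cyp2c55 was at 16.5 CPM of the total count against 21.9 in the CCl4 library and 0.979 in oil, Cyp2c70 at 504 against 378 and 132, and Cyp2c37 at 31.0 against 61.4 and 208. Cyp2c38 was at 3.93 CPM against 9.90 and 36.4, so that its scaled log2 ratio to oil was -3.54 in place of -2.13, and that of Cyp2c37 was -3.09 in place of -2.02. Cyp2c29, at 362 against 528 and 295 CPM, had a scaled log2 ratio to oil of -0.05 in place of 0.57, and Cyp2c44 one of -0.16 in place of 0.35. The signs of Cyp2c29 and Cyp2c44 thus depended, after scaling, on which CCl4 reads were taken, while on the total count both sets lay above oil.

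**Figure D5:**
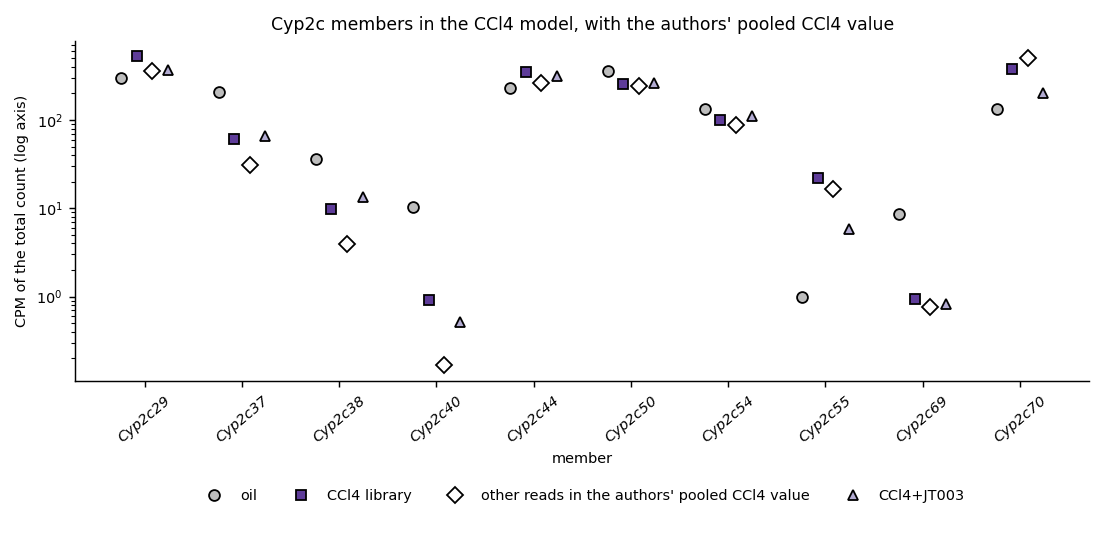
Counts scaled to the total count (CPM, vertical axis, logarithmic) of the 10 Cyp2c members in oil (circles), the CCl4 library (squares), the other reads of the value assumed to be the authors' pool of CCl4 libraries (open diamonds) and CCl4+JT003 (triangles). On this scale both CCl4 values lie on the same side of oil for all 10 members, and they differ most for Cyp2c40, with 0.909 and 0.166 CPM.

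Of 13 pericentral genes, 6 were called lower and none higher (median -0.94). They included Glul (14862 to 1962 counts, log2 ratio -3.24), the marker of the innermost hepatocytes, and Cyp2e1 (151340 to 39104, -2.27), the enzyme that activates CCl4. Others of the list were not lower, such as Cyp1a2 (6742 and 12354 counts, 0.56) and Axin2 (190 and 367, 0.63). Of 12 periportal genes, 3 were called lower and none higher (median -0.40), and Cyp2f2 had 15627 and 24977 counts (0.36). Of 12 genes that are higher in male than in female liver, 11 were called lower (median -3.35), with Mup7 going from 153582 to 370 counts (-9.01). Of 5 genes with enough counts that are higher in female liver, 4 were called higher and 1 lower (median 3.81, or 2.95 with genes at 0 set to their bound), Cyp2a4 and Cyp2b9 among the former. Whether zone or sex-biased expression bears on the Cyp2c differences was not tested.

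Of 17 CAR and PXR targets, 8 were called higher, like Cyp2c55, and 1 lower, Cyp2a5 (4395 to 1108 counts, log2 ratio -2.30), with a median of 0.85. Cyp2a4 had 0 and 943 counts, at least 252-fold higher against a floor of 3 counts in the oil library, and Cyp2b9 1 and 113 (log2 ratio 5.05, interval 3.99 to 11.8). Cyp2a4 and Cyp2b9 are the same genes that count above among those higher in female liver. Cyp2a4 and Cyp2a5 moved in opposite directions, and whether reads were divided between them was not tested. Cyp2b10, the usual readout of CAR, went from 4 to 421 counts (5.88) and Gstm3, a glutathione transferase, from 304 to 11923 (4.97), while Nr1i3 had 2628 and 1852 counts (-0.82), Nr1i2 1897 and 2430 (0.04) and Cyp3a11 64109 and 140654 (0.82). Por had 14677 and 10286 counts (-0.83) and Hnf4a 15044 and 14492 (-0.37). Ephx2, at 30403 and 15901 counts (-1.25), was 1 of 6 genes called lower of 15 that handle arachidonic acid and epoxides.

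Of 11 macrophage genes 8 were called higher in CCl4 than in oil, and their summed level was 80.9 scaled CPM in oil and 243 in CCl4, with Lyz2 as the gene of the highest FPKM in both. Of 6 bile duct genes 4 were called higher and of 10 stellate cell genes 3, while of 8 endothelial genes 2 were called lower and of 5 red blood cell genes 3. The part of these cells in the Cyp2c values was not tested. For Cyp2c55, known from the gut, the gut markers Vil1 (1 and 13 counts), Muc2 (3 and 0) and Krt20 (0 and 1) were at or near 0 in oil and CCl4. Other genes of the same intestine list were not: Fabp2 had 1842 and 1003 counts, Lgals4 1007 and 1017 and Tff3 217 and 54. The list as a whole summed to 3584 and 1738 scaled CPM, mostly from Apoa4, which the liver makes as well. Of its 5 genes with enough counts, 1 was called higher, which was Vil1, and 3 were called lower.

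The fourth comparison was JT003 in CCl4-treated mice. Cyp2c55 was lower, from 442 to 114 counts (log2 ratio -1.96, interval -2.28 to -1.67), and was the 1 of 10 members called lower, against 4.28% of 13785 genes. None was called higher (0 of 10, against 4.57%). With an edgeR test at an assumed coefficient of variation of 0.4 between mice, the call of Cyp2c55 ended. Cyp2c70, from 7611 to 3910 counts, stopped just short of the threshold at -0.98 (interval -1.04 to -0.92). The summed counts had a log2 ratio of -0.43 (interval -0.45 to -0.40), and the median was -0.23 for the members and -0.02 for all genes.

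Cyp2c37, lower with CCl4 than with oil, had 1238 counts in CCl4 and 1292 in CCl4+JT003 (log2 ratio 0.04, interval -0.07 to 0.16). Cyp2c38 had 200 and 261 (0.36, interval 0.09 to 0.64), Cyp2c50 5208 and 5038 (-0.07) and Cyp2c54 1990 and 2156 (0.10). The intervals of Cyp2c40 and Cyp2c69, with at most 19 counts a library, held 0. The trio together was at -0.011 (interval -0.054 to 0.033), Cyp2c40 and Cyp2c69 together at -0.50 (interval -1.31 to 0.23), and the 4 copies with Cyp2c67 and Cyp2c68 at -0.089 (interval -0.14 to -0.036). Cyp2c29 was at -0.61 (interval -0.65 to -0.57) and Cyp2c44 at -0.23 (interval -0.28 to -0.18).

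Against the other CCl4 reads, again on the assumption that the larger value is a pool, several of these ratios changed. Cyp2c37 was then at 1.11, Cyp2c38 at 1.77 and Cyp2c40, which had 7 other reads, at 1.27, so that these would be called higher. Over all genes 376 of 14592 were called higher on that setting, and 942 lower. Cyp2c29 was at 0.02 and Cyp2c44 at 0.29, with their signs turned. Cyp2c55 kept its call at -1.47, and Cyp2c70 passed the threshold at -1.31. The 2 members called higher with CCl4 than with oil, Cyp2c55 and Cyp2c70, were thus lower with JT003 against the CCl4 library and against these assumed other reads, whereas no direction can be given for Cyp2c29, Cyp2c40, Cyp2c44, Cyp2c50 or Cyp2c69, whose signs differed between the 2 sets. The CCl4 library is shared with the comparison against oil, so its own deviation enters both.

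Around the family, Cyp2b10 went from 421 to 108 counts (log2 ratio -1.96), Cyp2a4 from 943 to 231 (-2.04), Gsta1 from 1821 to 355 (-2.37) and Gstm3 from 11923 to 2264 (-2.41). Of 17 CAR and PXR targets 5 were called lower and 2 higher. Cyp2a5 was one of the latter (1108 to 4386 counts, 1.96). It again moved opposite to Cyp2a4, which also counts among the genes higher in female liver. Whether reads were divided between Cyp2a4 and Cyp2a5 was not tested. The heme synthesis gene Alas1 went from 10199 to 26777 counts (1.37), Por had 10286 and 16447 (0.66) and Nr1i3 1852 and 3401 (0.86). Glul had 1962 and 2594 counts (0.38) and Cyp2e1 39104 and 77764 (0.97), and 1 of 13 pericentral genes was called higher. Of 10 stellate cell genes 4 were called lower, and of 11 macrophage genes 2 were called higher and 1 lower. Of 8 genes with enough counts that are higher in female liver, 5 were called higher and 2 lower (median 1.57). Of 11 that are higher in male liver, 2 were called higher and 1 lower (median 0.33). Acute phase genes were called higher for 4 of 13. Whether any of these bears on the Cyp2c differences was not tested.

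The 2 control livers measured how far livers without either disease model stood apart. They differ in vehicle, diet model and length of treatment, and the cause of a difference between them cannot be told apart. In oil against SD, 5 of 10 members were called higher, against 5.12% of 13302 genes, and 0 of 10 lower, against 5.93%. The members were Cyp2c40 (40 to 203 counts, log2 ratio 2.43), Cyp2c38 (190 to 707, 2.03), Cyp2c69 (53 to 168, 1.77), Cyp2c55 (5 to 19, 1.71, interval 0.61 to 3.85) and Cyp2c54 (1367 to 2559, 1.05). Cyp2c40 and Cyp2c69 together were at 2.12 (interval 1.81 to 2.49). With Cyp2c67 and Cyp2c68 added the sum was at 0.58 (interval 0.52 to 0.63) and the trio at 0.88 (interval 0.84 to 0.92), both short of the threshold. Cyp2c54 alone was also short of it with total counts (0.96) and with FPKM at a pseudocount of 1 (0.94) or 0.1 (0.96), and Cyp2c55 was at 0.41 with FPKM at a pseudocount of 1. An edgeR test at an assumed coefficient of variation of 0.2 between mice ended some of the 5 calls, and at 0.4 it ended all of them. The summed counts had a log2 ratio of 0.60 (interval 0.58 to 0.63), beside 0.62 for HFD against SD, which shares the SD library, and the median of the members was 0.99.

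In scaled counts the oil liver was closer to the HFD liver than to the SD liver for 7 members, all but Cyp2c40, Cyp2c69 and Cyp2c70, and SD had the lowest FPKM of the 6 libraries for 6 members. The log2 ratio between the controls was larger in size than that of JT003 in the diet model for 9 of the 10 members, all but Cyp2c37. With total counts this held for 7 members, without Cyp2c29 and Cyp2c44, and with FPKM for 6, without Cyp2c54 as well. In the same pair of livers, 9 of 14 CAR and PXR targets were called higher and none lower (median 1.25), with Cyp3a11 at 8921 counts in SD and 64109 in oil (2.99). Of 11 macrophage genes 10 were called lower (median -1.94), their summed level being 343 scaled CPM in SD and 80.9 in oil. Of 6 bile duct genes 4 were called higher (median 1.35), and of 8 endothelial genes 2 lower (median -0.73). Of 10 stellate cell genes 2 were called higher and 2 lower, and of 3 adipocyte genes with enough counts 2 higher. The part of these cells in the Cyp2c values was not tested.

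Over the 6 libraries, the genes with the most similar profile were sought among 8317 genes outside the family with at least 100 counts in every library. Pearson correlations were taken of log2 scaled CPM, with the counts scaled between libraries as for the ratios. With 6 points from the same libraries, high values arise among so many genes, and they are given as a description. For Cyp2c55 they were Gsta4 (0.996), Gstm3 (0.994) and Soat2 (0.994), the first 2 being glutathione transferases. For Cyp2c37 they were the peroxidase Prdx6 (0.994), Dmgdh (0.991) and Ncoa4 (0.991). Cyp2c29 was closest to Pla1a (0.976), Papss2 (0.972) and the P450 gene Cyp4f14 (0.972), and Cyp2c44 to H2-T23 (0.987), Alb (0.983) and Mtfmt (0.977). The mean profile of the 10 members was most like Nde1 (0.962), Mocs1 (0.961) and Slc25a5 (0.95).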

How the data were processed

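Liver RNA had been sequenced on a BGISEQ-500 instrument. The processing notes in the labels name HISAT, Bowtie2, RSEM and the build mm9, with no versions. The authors deposited for each of 6 libraries the estimated (expected) counts and FPKM of each gene, listing genes with reads. The 4 deposited comparison tables hold fold changes and p-values of the authors, which were not used, and 7 expression columns that were not used, and 1 column of CCl4 expected counts, assumed to be a pool of libraries, was used as an alternative. Genes not listed in a library were set to 0 and expected counts were rounded. Libraries were scaled by TMM factors over all 6 libraries (edgeR 4.0.16, R 4.3.3), log2 ratios were formed with a prior count of 2, and 95% intervals are Clopper-Pearson intervals (scipy 1.17.1), which cover counting error only. Reads carry no molecular identifiers.

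Members were matched by symbol. Cyp2c44 is named Cyp2c23 in the reference transcripts and was matched there by that name. Promoter windows were matched by gene identifier. Protein identity came from the longest reading frames of GENCODE M21 transcripts (Biopython 1.88), and promoters from the RefSeq table of GRCm38.p6. The ratio script was tested on simulated data. The members and gene lists were chosen with earlier results of these data known. All members were described, and genes named from a list were drawn from its 4 largest ratios past the threshold with at least 100 counts, besides Por, Nr1i3, Nr1i2, Hnf4a, Ephx2, Cyp2e1, Cyp3a11, Cyp2b10, Alb, Glul and Cyp2f2. Genes named for cell source (Vil1, Muc2, Krt20, Fabp2, Lgals4, Tff3, Apoa4, Lyz2, Trem2), Axin2, Cyp1a2, Cyp2a5 as the CAR and PXR target lower with CCl4, and Cyp2c67 and Cyp2c68 were chosen after their values were seen. So were Fabp4, and Cyp2b13 and Cyp3a25 as genes that stand on several lists. Alternatives were DESeq2 1.42.0 size factors, total counts, other filters, prior counts and units, an assumed spread between mice, and that CCl4 column.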

Additional observations from a re-analysis of the deposited data

Results flagged for a closer look

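For 3 members whose counting intervals did not hold 0, the ratio of JT003-treated to untreated liver had opposite signs in the 2 models, in the 1 library that each group has. Cyp2c29 was at 0.40 on the log2 scale on the high fat diet and at -0.61 with CCl4. Cyp2c44 was at 0.43 and -0.23, and Cyp2c50 at 0.54 and -0.07. The second ratio of Cyp2c50 was 0.0092 with total counts and 0.033 and 0.034 with FPKM at a pseudocount of 1 and 0.1, so that it has no sign of its own. Cyp2c69 was at 0.49 and -0.24, with intervals that held 0 in both models. The difference between the models was not tested, and against the other reads of a CCl4 value that was assumed to be the authors' pool of several libraries the second ratio was 0.02 for Cyp2c29, 0.29 for Cyp2c44 and 0.11 for Cyp2c50, which is the sign of the diet model. In data outside the main comparisons, Cyp2c55 was at 16.5 CPM of the total count in those other CCl4 reads, above the 0.979 of the oil library.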

How the results depend on the processing

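No paired analysis was possible because each group has 1 library and the labels carry no replicate numbers, and leaving a library out of a group would leave none. Of 330 single-member ratios under alternatives, 317 had the sign of the value reported, 14 lay on the other side of the 2-fold threshold, and no called ratio changed sign. Depth limits Cyp2c40, Cyp2c55 and Cyp2c69, whose counts were under 100 in most libraries. The cause of the changes below was not tested unless stated.

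With total counts, the median over all genes moved to 0.24 for CCl4 against oil and to 0.13 for HFD against SD, where the split went from 792 higher and 553 lower to 985 and 440. The summed Cyp2c ratio was then 0.74 (HFD against SD), 0.27 (CCl4 against oil), -0.35 (JT003 with CCl4) and 0.51 (oil against SD). Ratios of FPKM gave 0.74, 0.29, -0.36 and 0.50 with a pseudocount of 1 or 0.1. For CCl4 against oil it was 0.035 with DESeq2 size factors and 0.040 with TMM within the model, -0.15 with the pooled CCl4 counts and -0.25 with those less the CCl4 library. For JT003 with CCl4 the pooled counts gave -0.26 and those less the CCl4 library -0.16, and called 3 members (1 higher) and 5 members (3 higher) in place of 1. Over all genes, these called 1306 of 14962 (364 higher, 942 lower) and 1318 of 14592 (376 higher, 942 lower). That was in place of 630 higher and 590 lower of 13785. For CCl4 against oil they called 1809 higher and 588 lower of 14972, and 1811 and 598 of 14581. That was in place of 1134 and 695 of 13602. For JT003 with CCl4, DESeq2 size factors called 2 members, with Cyp2c70 as the second.

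At least 100 counts left 2 members called for HFD against SD, beside 695 of 9568 genes, by fewer genes tested. An FPKM pseudocount of 1 left 2 there and 3 for oil against SD. An edgeR exact test with an assumed coefficient of variation between mice of 0.2 called 1 member for HFD against SD and 3 for oil against SD. At 0.4 it called 3 members for CCl4 against oil and 0 in the comparisons HFD against SD, JT003 with CCl4 and oil against SD.

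Over all genes, in the order HFD against SD, JT003 on HFD, CCl4 against oil, JT003 with CCl4 and oil against SD, the calls numbered 695, 188, 813, 528 and 634 at 100 counts. The genes tested at 100 counts numbered 9568, 9670, 9612, 9807 and 9353. In the same order the calls changed as follows with other settings. They numbered 542, 150, 763, 391 and 422 with an FPKM pseudocount of 1, 473, 76, 798, 342 and 375 at the assumed 0.2, and 52, 7, 170, 37 and 15 at 0.4. Without a filter they were 1283 for JT003 on HFD, 1880 for JT003 with CCl4 and 2268 for oil against SD. By Spearman correlation, 1 of the 3 genes most like the family mean was kept.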
